A study of Mus musculus with 24 samples.

Results

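Desmosome and adherens junction genes were followed in the oesophagus of mice that lack the transcription factor Nrf2 and of wild-type mice, with and without reflux. The 10 genes were Dsg2, Dsg3, Dsc2, Dsc3, Dsp, Jup, Pkp1, Pkp3, Cdh1 and Ctnnb1, taken wherever a probe of the scanner files carried one of these names. They had 21 probes, of which 20 passed a filter on dim signal, and all 10 genes were among the 20555 genes tested. Each gene was represented by its probe of highest mean brightness.

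In build mm9, as the scanner files give it, the representative probes lay at Dsp chr13:38289734-38289793, Jup chr11:100232695-100232754, Pkp1 chr1:137768027-137768086, Pkp3 chr7:148276224-148276283, Cdh1 chr8:109193812-109193871 and Ctnnb1 chr9:120869274-120869333, with the 4 cadherins Dsg2, Dsg3, Dsc2 and Dsc3 on chromosome 18. The exon structure of that build was not used here.

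The arrays fell into 8 groups of 3, from Nrf2-/- and wild-type mice without reflux and Nrf2-/- and wild-type mice with gastric, duodenal or mixed reflux. The labels describe male C57BL/6J mice, 12 weeks old, with reflux lasting 4 weeks where present. The labels name no promoter or Cre for the Nrf2-/- allele. Every array set Cy5-labelled oesophageal RNA against a Cy3-labelled reference RNA of 11 mouse cell lines with no dye swap, and each value below is the log2 ratio of oesophagus over that reference. A ratio of this kind does not rank one gene against another, so only differences of the same gene between groups are compared.

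Desmosomes join the intermediate filaments of neighbouring epithelial cells, and in stratified squamous epithelium such as that of the mouse oesophagus they give the sheet its mechanical strength. Their transmembrane proteins are desmogleins and desmocollins, cadherins that bind those of the next cell, while plakoglobin, plakophilins and desmoplakin form the plaque that ties them to keratin filaments. Adherens junctions join the actin filaments of neighbouring cells through E-cadherin, whose cytoplasmic tail binds beta-catenin. Nrf2 activates antioxidant and detoxification genes, and the study pairs each Nrf2-/- group with the wild-type group under the same reflux.

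The labels call 7 groups whole oesophagus and the Nrf2-null mixed reflux group oesophageal epithelium. Squamous markers were well above background on all 24 arrays, with log2 ratios of 3.54 to 5.55 for the basal keratin Krt5 and 6.38 to 7.84 for the squamous progenitor factor Trp63 where measured. Nfe2l2, which encodes Nrf2, read -3.81 to -2.83 on the 12 Nrf2-null arrays and 1.45 to 2.18 on the 10 wild-type arrays where it was measured. Nrf2-null mixed reflux was represented by 3 nearly identical arrays, with correlations of 0.996 to 0.997, against 0.754 to 0.991 for replicate pairs of the other groups, and these 3 were counted as 1 sample. Xist, expressed from the inactive X of female cells, read -1.78 on replicate 2 of Nrf2-null gastric reflux and -7.20 to -4.67 on the others, although all mice are labelled male. Arrays of a group are called biological replicates by the labels, so n is 3 unless stated.

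Several arrays stood apart, which bears on the values that follow. Replicates 1 and 2 of wild type without reflux shared slide 1 and had 13.0% and 11.8% of their spots marked as outliers, against 0.293% to 0.659% elsewhere, which leaves Dsp, Pkp1, Pkp3 and Ctnnb1 on 1 array of that group and Dsc2 and Jup on 2. Replicate 1 of Nrf2-null gastric reflux and replicate 2 of Nrf2-null duodenal reflux had a median log2 Cy5 intensity of 9.18 and 9.01, against 9.67 to 10.29 on the 20 other arrays outside slide 1. The lowest medians of all were those of slide 1, 8.14 and 8.27. Below, the low arrays are the Nrf2-null pair alone, and results of the 10 genes are given with and without it.

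**Figure D1:**
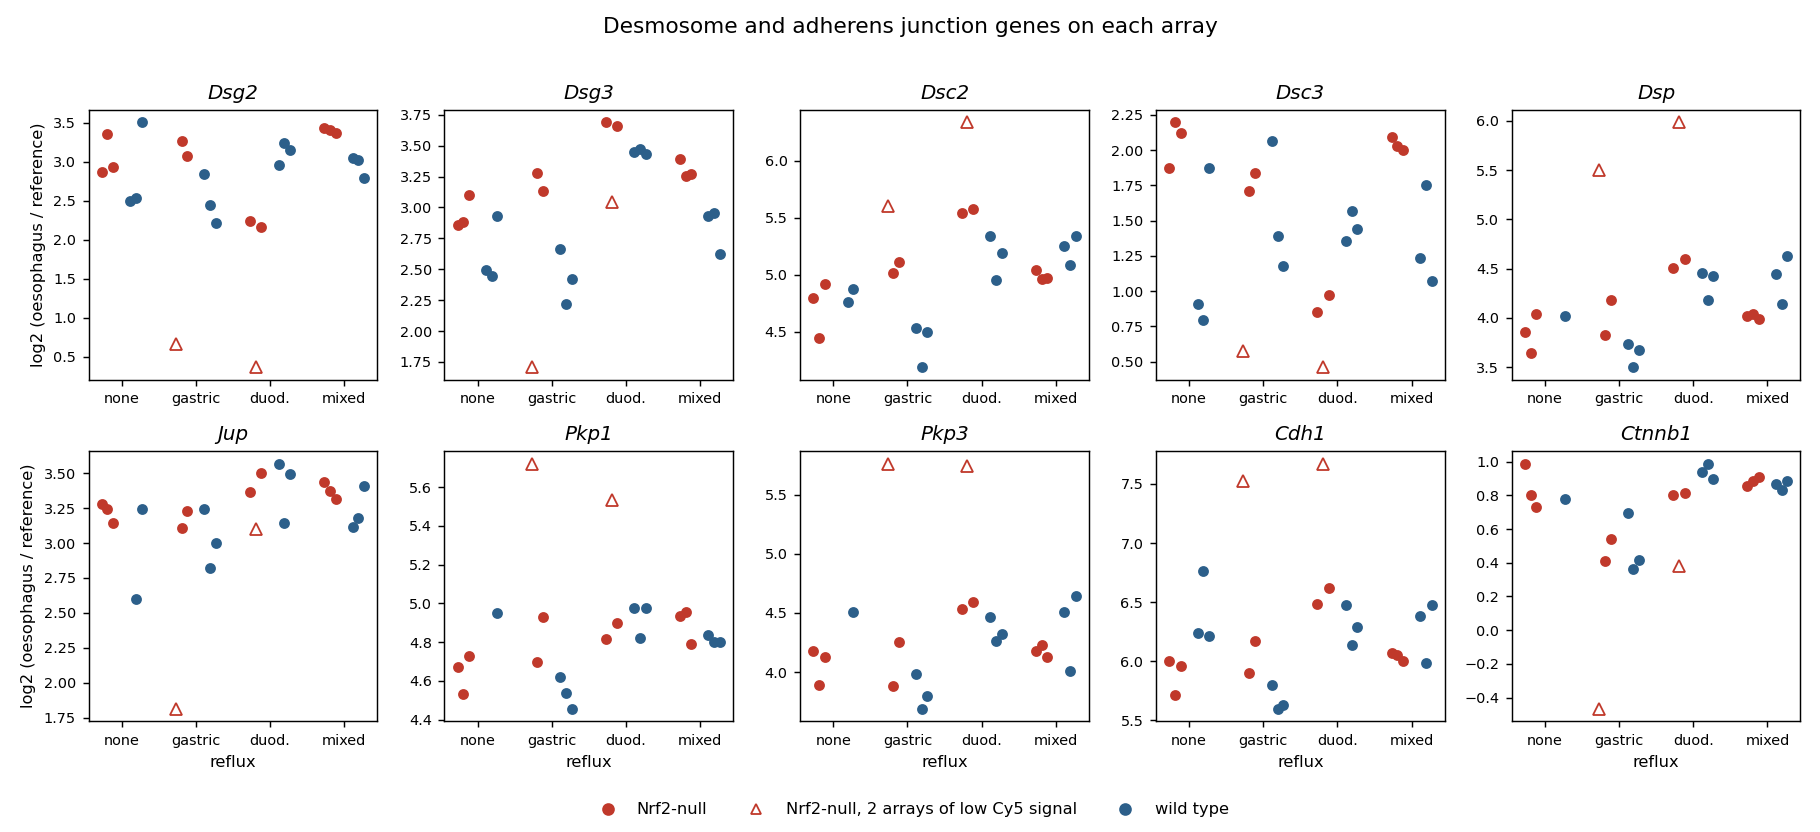
Log2 ratio of oesophagus over reference RNA (y axis, a separate scale in each panel) for each of the 10 genes on every array, by reflux (x axis), with Nrf2-null arrays left of wild-type arrays. Open triangles mark Nrf2-null gastric replicate 1 and duodenal replicate 2, which stand apart from their groups in most panels, above them for Dsp, Pkp1, Pkp3 and Cdh1 and below them for Dsg2.

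Duodenal reflux in Nrf2-null mice was the setting with the most calls among these genes. Relative to Nrf2-null mice without reflux, Dsc2, Dsp and Cdh1 rose and Dsc3 fell, so 4 of 10 members changed, where 19.8% of all genes did. By direction, 3 of 10 rose against 13.5% of all genes, and 1 of 10 fell against 6.31%. The median difference of the members was 0.48 and that of all genes 0.08 on the log2 scale. For 7 of 10 members the arrays of the 2 groups did not overlap, as for 44.4% of all genes.

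Among the desmosomal cadherins, Dsc2, the most widely expressed desmocollin, had log2 ratios of 5.54, 6.34 and 5.58 under duodenal reflux in Nrf2-null mice, against 4.80, 4.44 and 4.92 in Nrf2-null mice without reflux. All duodenal arrays lay above all arrays without reflux, also with the high value of replicate 2 set aside. The difference was 1.10 ± 0.21 (SE), a 2.15-fold increase (adjusted p = 0.00225), and 0.84 without the pair of low arrays (adjusted p = 0.00203).

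Dsc3, a desmocollin typical of the basal layers of stratified epithelium, moved the other way. Its ratios were 0.85, 0.46 and 0.98 under duodenal reflux in Nrf2-null mice, against 1.88, 2.20 and 2.12 in Nrf2-null mice without reflux, with no overlap. The spot of replicate 2 was not well above background. Dsc3 fell by 1.30 ± 0.33 on the log2 scale (adjusted p = 0.0109), and by 1.15 without the low arrays (adjusted p = 0.0112). Dsc2 and Dsc3 therefore differed in direction, both with all arrays and without the pair.

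Dsg2, the desmoglein shared by simple and stratified epithelia, read 2.25, 0.37 and 2.16 under duodenal reflux in Nrf2-null mice, against 2.87, 3.35 and 2.94 in Nrf2-null mice without reflux. Every duodenal value was the lower one, but the 0.37 of replicate 2 widened the error. The difference of -1.46 ± 0.55 did not pass the test with all arrays (adjusted p = 0.07), while without the low arrays Dsg2 fell by 0.85 (adjusted p = 0.0268).

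Dsg3, the desmoglein of the deep epithelial layers and the main antigen of mucosal pemphigus vulgaris, read 3.69, 3.04 and 3.66 under duodenal reflux in Nrf2-null mice, against 2.86, 2.88 and 3.10 in Nrf2-null mice without reflux. Replicates 1 and 3 lay above the arrays without reflux and replicate 2 among them. The difference was 0.52 with all arrays (adjusted p = 0.24) and 0.73 without the low arrays (adjusted p = 0.00493). The other tested probe of Dsg3 read 3.57, 5.29 and 3.89 under duodenal reflux, against 4.50, 3.91 and 3.67 without reflux in Nrf2-null mice. Without the low arrays 6 of 10 members were called, Dsg2 and Dsg3 besides the 4 above, where 23.6% of all genes were.

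In wild-type mice Dsg3 read 3.45, 3.47 and 3.44 under duodenal reflux, against 2.50, 2.44 and 2.93 without reflux, a difference of 0.83 ± 0.30 (adjusted p = 0.0911). It passed the test without the low arrays of the other genotype (adjusted p = 0.00124), which enter the gene's shared estimate of spread, as the 1 member called, where 22.8% of genes were. The wild-type groups did not overlap. The genotype by reflux interaction of Dsg3 did not pass the F test with all arrays (adjusted p = 0.864) or without the pair (adjusted p = 0.22), so the response was not shown to differ between genotypes.

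Of the plaque genes, Dsp, whose product desmoplakin anchors keratin filaments, was called. It read 4.51, 5.99 and 4.60 under duodenal reflux in Nrf2-null mice, against 3.86, 3.64 and 4.04 in Nrf2-null mice without reflux. The groups did not overlap, and the low array held the highest value of the gene. Dsp rose by 1.18 ± 0.39, or 2.27-fold (adjusted p = 0.0446), and by 0.71 without the low arrays (adjusted p = 0.00975).

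The other plaque genes passed no test in any of the 11 comparisons, with or without the low arrays. Pkp1 and Pkp3, plakophilins that cluster desmosomal cadherins and recruit desmoplakin, had differences of 0.44 (adjusted p = 0.178) and 0.89 (adjusted p = 0.123) under duodenal reflux in Nrf2-null mice. Without the low arrays these were 0.22 and 0.50. Pkp3 read 4.53, 5.75 and 4.59 under duodenal reflux in Nrf2-null mice, against 4.18, 3.89 and 4.13 in Nrf2-null mice without reflux, again with the low array far above the rest. Jup, which encodes plakoglobin, the catenin found in both kinds of junction, ranged from 1.81 to 3.57 over the arrays, and its differences from -0.50 to 0.48.

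In the adherens junction, Cdh1, which encodes E-cadherin, read 6.49, 7.67 and 6.62 under duodenal reflux in Nrf2-null mice, against 6.00, 5.71 and 5.96 in Nrf2-null mice without reflux. All duodenal values were the higher ones. Cdh1 rose by 1.03 ± 0.34, or 2.05-fold (adjusted p = 0.0432), and by 0.66 without the low arrays (adjusted p = 0.0181). The representative probe of Ctnnb1, which encodes beta-catenin, E-cadherin's partner and the effector of Wnt signalling, passed no test in any of the 11 comparisons. Its differences ran from -0.68 to 0.16 with all arrays and from -0.36 to 0.16 without the low arrays.

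These 4 calls depend on the handling of the scan days. Replicates 1 and 2 of Nrf2-null without reflux were scanned on day 2, and replicate 3 with all the duodenal arrays on day 3. With scan day as a block, which for this comparison equals the value within day 3, the differences were 0.91 for Dsc2, 0.99 for Dsp, 0.97 for Cdh1 and -1.36 for Dsc3, and none passed the test (adjusted p of 0.109 to 0.386). Dsp lost its call when any of 13 single arrays was left out and Cdh1 when any of 12 was, replicate 2 of Nrf2-null duodenal reflux among them. Dsc3 lost its call without that same replicate alone (-1.15, adjusted p = 0.0503). With median centring in place of loess the median of all genes moved to -0.17, and the differences were 0.47 for Dsc2 (adjusted p = 0.16), 0.78 for Dsp, 0.58 for Cdh1 and -0.89 for Dsc3, the last 3 called. With slide as a block, which ties the Nrf2-null arrays without reflux to the duodenal ones only through the slide of low gastric replicate 1, they were 1.57, 2.71, 2.61 and -2.66 in the same order, all called.

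**Figure D2:**
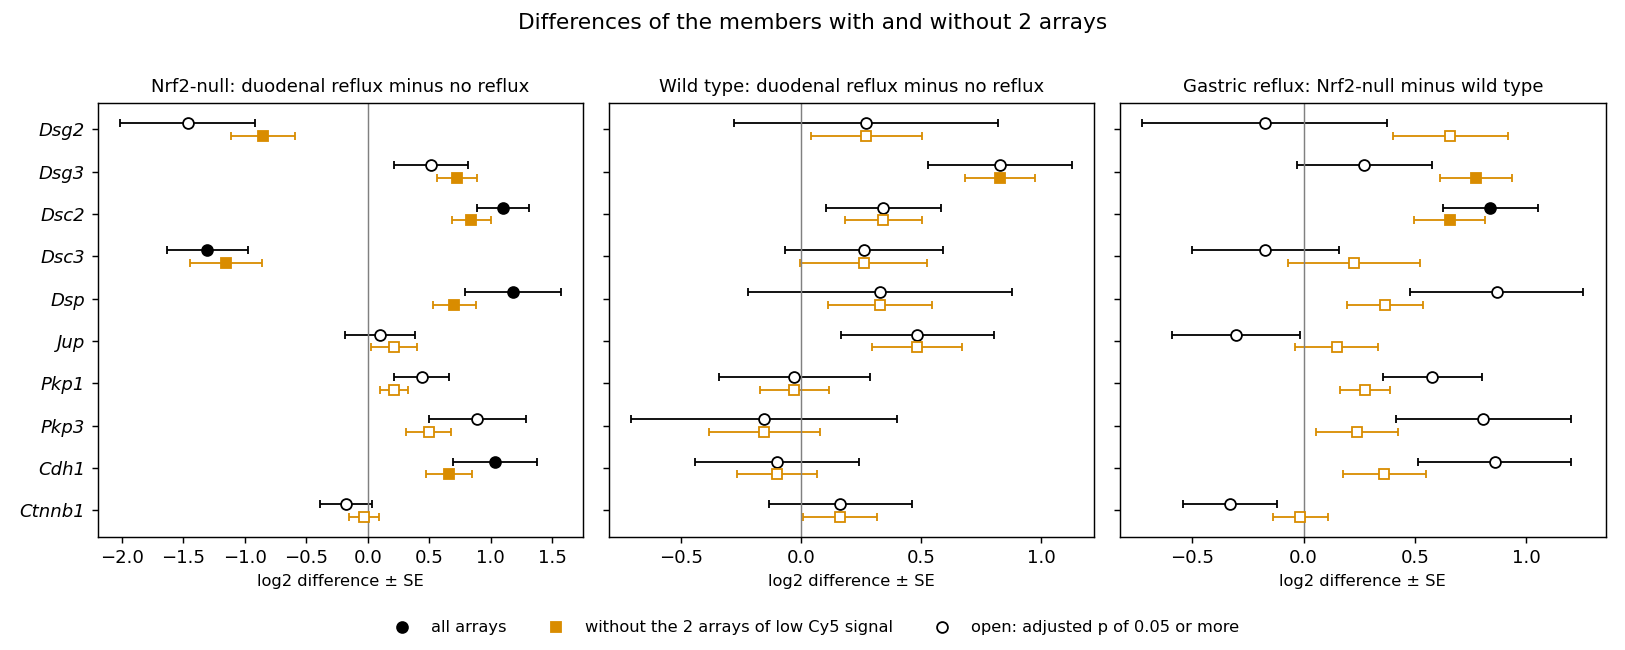
Log2 difference ± SE of each gene (x axis) for duodenal reflux against no reflux in Nrf2-null and in wild-type mice and for Nrf2-null against wild type under gastric reflux, with all arrays (black circles) and with both low Cy5 arrays left out (orange squares). Filled symbols have an adjusted p under 0.05. Dsc2 is filled in both settings in the left and right panels, and Cdh1 moves from 1.03 to 0.66 when the pair is left out.

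Several marker lists also held called genes in the same comparison, where 13.5% of all genes were higher and 6.31% lower. Without the low arrays 23.6% of all genes were called. The squamous suprabasal list, keratins and envelope genes of differentiating squamous cells, had 7 of 10 genes higher and none lower, with a median difference of 1.18, or 0.73 without the low arrays. Its mean log2 ratio per array was 5.27 to 6.41 under duodenal reflux in Nrf2-null mice and 4.57 to 4.76 in Nrf2-null mice without reflux. The basal keratinocyte list had 1 of 8 genes higher and none lower, or 3 of 8 higher without the low arrays, at 4.30 to 4.87 under duodenal reflux and 3.94 to 4.07 without reflux in Nrf2-null mice.

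Endothelial markers had 2 of 6 genes higher and none lower, with a median difference of 0.73, or 4 of 6 and 1.01 without the low arrays. They were at 2.54 to 3.92 under duodenal reflux and 2.74 to 2.84 without reflux in Nrf2-null mice. Neutrophil markers had 5 of 6 genes higher and none lower, at 4.73 to 4.91 under duodenal reflux and 1.61 to 1.75 without reflux in Nrf2-null mice. The columnar list had 1 of 7 tested genes higher and 1 lower. Of the fibroblast, smooth muscle, macrophage and Schwann cell and neuron markers none was called with all arrays. Their median differences were -0.80, -0.55, 0.05 and 0.18 in that order. Without the low arrays these were -0.16, -0.26, 0.29 and 0.14, and 1 of 8 smooth muscle markers was called, as higher. Of 10 skeletal muscle markers none was called, at 3.65 to 4.11 under duodenal reflux and 2.48 to 3.48 without reflux in Nrf2-null mice. With their level as a covariate Dsc2 (1.09) and Dsc3 (-1.18) passed the test, while Dsp (1.10, adjusted p = 0.0572) and Cdh1 (0.96, adjusted p = 0.0556) did not. The part of the squamous, basal, endothelial and neutrophil lists in the result was not tested. In such bulk samples fewer cells of a type and less RNA per cell cannot be told apart.

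Under gastric reflux Dsc2 was the called member between the genotypes, 1 of 10 where 17.7% of all genes were called. Dsc2 read 5.61, 5.01 and 5.11 in Nrf2-null mice, against 4.53, 4.19 and 4.50 in wild-type mice, with no overlap. It was 0.84 ± 0.21 higher in Nrf2-null mice, or 1.79-fold (adjusted p = 0.0164), and 0.66 higher without the low arrays (adjusted p = 0.00927). Dsp, Pkp1, Pkp3 and Cdh1 had differences of 0.87, 0.58, 0.81 and 0.86 with adjusted p of 0.0814 to 0.158, and of 0.24 to 0.37 without the low arrays.

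Dsg3 read 1.71, 3.28 and 3.14 in Nrf2-null mice under gastric reflux, against 2.66, 2.22 and 2.42 in wild-type mice. On this representative probe, replicate 1 of the Nrf2-null group lay below all wild-type arrays and replicates 2 and 3 above them. On the other tested probe of Dsg3 replicate 1 read 4.71 and replicates 2 and 3 read 2.52 and 2.88. The wild-type arrays read 1.49 to 2.17 there. The difference of the representative probe was 0.27 with all arrays (adjusted p = 0.543) and 0.77 without the low arrays (adjusted p = 0.0047), when 2 of 10 members and 32.2% of all genes were called. Over the mean of the 4 conditions no member was called with all arrays, against 8.17% of genes, with 1 member at an unadjusted p under 0.05. Without the low arrays Dsg3 was 0.45 higher in Nrf2-null mice (adjusted p = 0.00267), when 24.4% of genes were called.

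The wild-type gastric arrays were scanned on day 2 and the Nrf2-null gastric arrays on day 3, so the day and the genotype are linked here only through other groups. With scan day as a block the Dsc2 difference was 0.54 (adjusted p = 0.819), with median centring 0.50 (adjusted p = 0.139), with the mean of its probes 0.46 (adjusted p = 0.136), and without replicate 2 of wild-type gastric reflux 0.73 (adjusted p = 0.0833). Of all genes 17.7% were called in this comparison with all arrays, and 32.2% without the low arrays. Squamous suprabasal markers had 3 of 10 genes higher in it, with a median difference of 0.93, or 4 of 10 and 0.40 without the low arrays. They were at 6.12 on the low array, 4.84 and 4.99 on the other Nrf2-null arrays and 4.38 to 4.66 in wild-type mice. Endothelial markers had 4 of 6 genes lower, at 2.15 to 2.94 in Nrf2-null mice and 3.68 to 4.02 in wild-type mice. Of the fibroblast markers 2 of 8 were lower, with a median difference of -1.43, at -1.44 to 0.33 in Nrf2-null mice and 0.59 to 1.00 in wild-type mice. Of the smooth muscle markers 2 of 8 were lower, with a median difference of -1.04, at 1.85 to 2.77 in Nrf2-null mice and 2.85 to 3.61 in wild-type mice. The part of these lists in the Dsc2 difference was not tested.

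The remaining comparisons held no call among the 10 genes in the limma fit with all arrays. Without reflux none was called between the genotypes, against 0.17% of all genes, with 1 member at an unadjusted p under 0.05. Under duodenal reflux none was called between Nrf2-null and wild type, against 1.89% of genes, with 2 members at an unadjusted p under 0.05, although for 7 of 10 members the genotypes did not overlap, as for 39% of genes. Under mixed reflux none was called between the genotypes, against 3.45% of genes, and none had an unadjusted p under 0.05.

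Against no reflux, gastric reflux in wild type (4.12% of genes called), mixed reflux in wild type (0.0535%), duodenal reflux in wild type (10.3%), gastric reflux in Nrf2-null (0.584%) and mixed reflux in Nrf2-null (4.76%) also gave no call, with 1, 0, 1, 2 and 0 members at an unadjusted p under 0.05 in that order. Cdh1 read 5.80, 5.60 and 5.63 under gastric reflux in wild-type mice, against 6.24, 6.76 and 6.21 without reflux, and all gastric arrays were the lower ones. Its difference was -0.73 ± 0.34 (adjusted p = 0.229 with all arrays, 0.0135 without the pair of the other genotype, when 16.4% of genes were called).

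Over the 8 groups together, Dsc2 was called by the F test for any difference (adjusted p = 0.00419), 1 of 10 members against 30.4% of genes. Without the low arrays 8 of 10 were called, all but Jup and Pkp1, against 56.6% of genes. The F test for a genotype by reflux interaction called none of 10 with all arrays, against 5.09% of genes, with 3 members at an unadjusted p under 0.05. Without the low arrays it called Dsg2 (adjusted p = 0.0292) and Dsc2 (adjusted p = 0.0448), against 19.5% of genes. Neither had a single interaction term against no reflux that passed the test there. The term was -1.12 for Dsg2 under duodenal reflux (adjusted p = 0.104), and for Dsc2 0.75 under gastric (adjusted p = 0.0565) and 0.50 under duodenal reflux (adjusted p = 0.261). The term called was that of Cdh1 under gastric reflux, 0.88 (adjusted p = 0.0472), against 1.37 with all arrays (adjusted p = 0.124). The Nrf2-null response to duodenal reflux was thus not shown to differ from the wild-type response with all arrays for any of the 10 genes.

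By their representative probes, the members split into groups on the low arrays. Relative to the other replicates of their group, Dsp, Pkp3, Cdh1, Pkp1 and Dsc2 were high on both arrays, and Dsg2, Dsg3, Jup, Dsc3 and Ctnnb1 were low on both. Another probe of Dsg3 was high on both, with 4.71 on gastric replicate 1 against 2.52 and 2.88 on replicates 2 and 3. A further probe of Ctnnb1 was also high on both (0.86 against -0.99 and -0.90 in the gastric group). A further probe of Dsc2 was low on both (4.33 against 6.27 and 6.41). The split thus holds for the representative probes and not for every probe of a gene. Dsp deviated by 1.50 on Nrf2-null gastric replicate 1 and 1.43 on Nrf2-null duodenal replicate 2, and Dsg2 by -2.50 and -1.84. Across the representative probes of the 10 genes the deviations of the arrays had a Pearson correlation of 0.977 and a Spearman correlation of 0.939. Across all genes the Pearson correlation was 0.67. Genes of one array are not independent replicates.

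The arrays also had a larger typical spread between probes of the same transcript, 0.868 and 0.772, against 0.200 to 0.546 on the 20 other arrays outside slide 1. By representative probe, the 4 dimmest members, Dsc3, Dsg2, Dsg3 and Jup, with a mean log2 brightness of 6.84 to 10.5, were all low on both arrays. Of the 6 brighter ones, at 11.5 to 15.5, 5 were high and Ctnnb1, at 14.6, was low. Over all genes the median deviation by class of brightness ran from -0.09 to 0.21 on the gastric array and from -0.05 to 0.15 on the duodenal array. The part of brightness in the split was not tested.

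**Figure D3:**
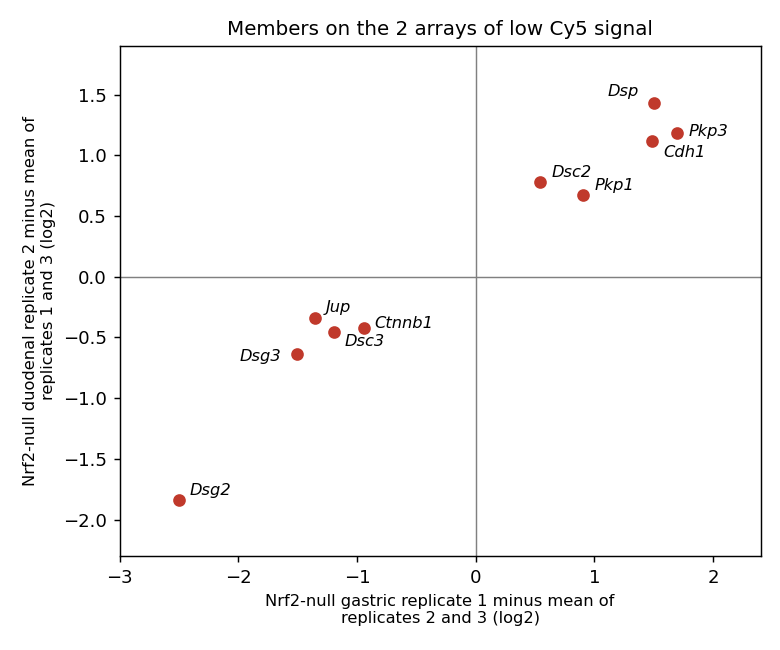
Deviation of each of the 10 genes on Nrf2-null gastric replicate 1 (x axis, log2) and on Nrf2-null duodenal replicate 2 (y axis, log2) from the mean of the other 2 replicates of its group. Each gene is shown by its representative probe alone. Each lies either below 0 or above 0 on both axes, from Dsg2 at -2.50 and -1.84 to Dsp at 1.50 and 1.43.

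The likeness of the genes across the 8 group means, which share these arrays and the reference RNA, followed this split only in part. The pairs among Dsc2, Dsp, Pkp1, Pkp3 and Cdh1 had Pearson correlations of 0.80 to 0.997, and of 0.65 to 0.985 without the low arrays. Pkp3 and Cdh1 had a Pearson correlation of 0.997, and 0.985 without the low arrays. Dsc2 and Dsp had 0.986. The genes low on both arrays were less alike. Dsg2 and Dsc3 had 0.784, but Jup had 0.28 with Dsg2 and 0.18 with Dsc3, while Dsg3 had -0.07 with Dsc3 and 0.66 with Dsc2. Of all genes tested, Sfxn1, Ice2, Fadd and Pnpla6 followed the mean of the 10 members most closely over the 8 groups, with correlations of 0.981, 0.980, 0.976 and 0.975, before a transcript without a gene symbol at 0.972. In the same order these were 0.952, 0.977, 0.973, 0.667 and 0.977 without the low arrays.

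Several members had more than 1 probe, and the probes of a gene did not always give the same difference. For Dsc2 under duodenal reflux in Nrf2-null mice the probes gave 1.10, 0.87 (adjusted p = 0.0389) and 0.32 (adjusted p = 0.598). For Dsg2 the probe at base 3878 of the transcript gave -0.13 (adjusted p = 0.563) and the representative probe at base 4946 gave -1.46 (adjusted p = 0.07). The Dsg2 probe at base 3763 was well above background on 0 of 3 duodenal arrays in Nrf2-null mice, so no difference is given for it. The other tested probe of Dsg3 was 1.30 higher in Nrf2-null than in wild-type mice over the mean of the 4 conditions (adjusted p = 0.0272), where the representative probe gave 0.27. The Ctnnb1 probe at base 2775 had a mean of 1.03 under duodenal reflux in wild-type mice and 0.40 without reflux, with no overlap. In Nrf2-null mice its means were 0.07 and 0.82 in the same order, and those of the third Ctnnb1 probe 0.11 and -0.63. On low replicate 2 of Nrf2-null duodenal reflux these probes read -0.88 and 1.07.

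Dsp had probes of both signs, shown here by one of each. Their 60 bases are those of the array design, in lower case throughout because no part is singled out.
Dsp probe at transcript base 5665 (mm9 chr13:38285480-38286579): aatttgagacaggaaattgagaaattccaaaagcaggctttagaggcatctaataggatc
Dsp probe at transcript base 6803 (mm9 chr13:38287658-38287717): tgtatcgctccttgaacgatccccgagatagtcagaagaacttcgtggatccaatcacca

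The probe at base 5665 gave 1.06 (adjusted p = 0.0693) for duodenal reflux against no reflux in Nrf2-null mice, near the 1.18 of the representative probe at base 8879. The probe at base 6803 gave -0.50 (adjusted p = 0.252), and -0.17 without the low arrays. In wild-type mice both rose under duodenal reflux, by 1.31 at base 5665 (adjusted p = 0.0442) and 1.20 at base 6803 (adjusted p = 0.0309), where the representative probe gave 0.33 from a single array without reflux. The probe at base 6803 was 1.28 lower in Nrf2-null than in wild-type mice under duodenal reflux (difference -1.28, adjusted p = 0.0392). The remaining probe, at base 9266, had a mean of 7.41 under duodenal reflux and 6.90 without reflux in Nrf2-null mice. Of the 4 probes of Dsp only that at base 6803 was thus lower there. The call of Dsp in Nrf2-null mice therefore holds for the representative probe and not for the gene's other probes, and the mean of its probes gave 0.56 (adjusted p = 0.0794).

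**Figure D4:**
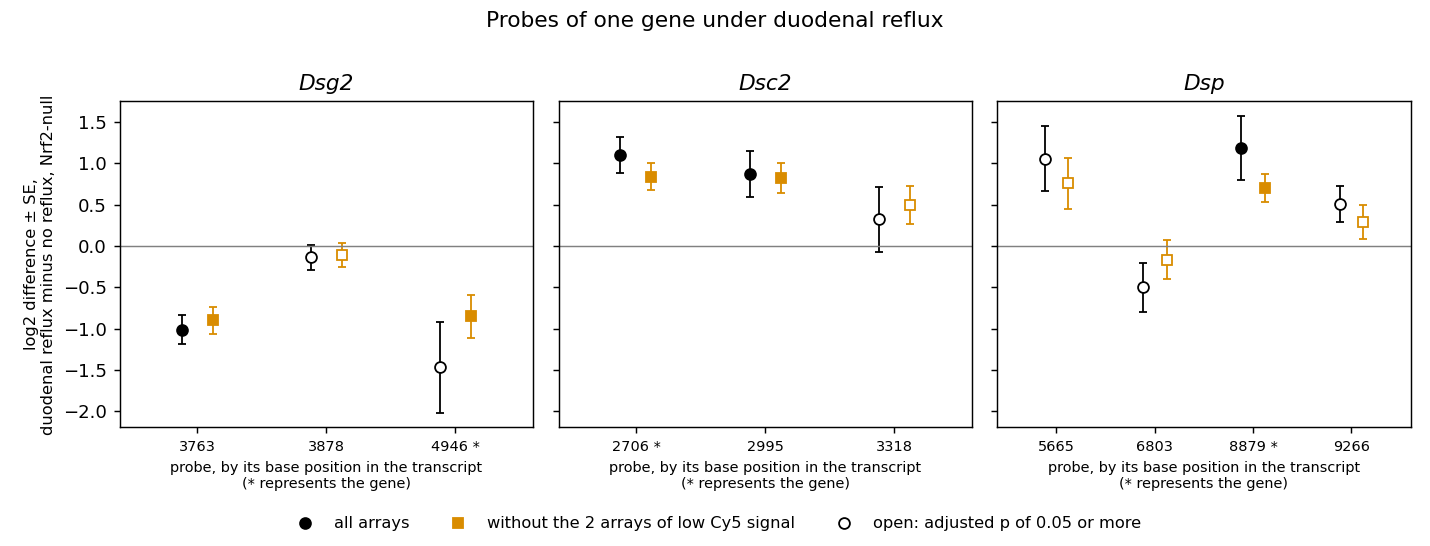
Log2 difference ± SE of duodenal reflux against no reflux in Nrf2-null mice (y axis) for each probe of Dsg2, Dsc2 and Dsp, placed by its base position in the transcript (x axis, evenly spaced), with all arrays (black) and with both low Cy5 arrays left out (orange). The Dsg2 probe at base 3763 was not well above background on the duodenal arrays, so its point is only a bound. The Dsc2 probes all lie above 0, while those of Dsp run from -0.50 to 1.18.

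RefSeq promoters of build GRCm38.p6 were matched for 3 of 10 members, Ctnnb1, Jup and Dsp, with 2 start sites for Ctnnb1. The 250 bases before each start were searched on both strands for the core of the antioxidant response element bound by Nrf2, TGACNNNGC, which 10.2% of 32851 promoters hold. The second start of Ctnnb1 held the match on the minus strand, 63 bases before that start. The match is shown in capitals, as its reverse complement, in the following plus-strand stretch of chr9:120933497-120933525.
Ctnnb1 promoter: ctcggtggcgGCCGCGTCAgctcgtgtcc
None of these promoters held CAGGTG, an E-box bound by Snai1 and Zeb1 (17.2% of promoters), AACCGGTT, the Grhl core (0.116%), or TGANTCA, the AP-1 core (6.75%). A match of letters is not a bound site.

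Other desmosome genes were compared next, from a list of 10 of which 9 were tested. Under duodenal reflux in Nrf2-null mice 1 rose and 1 fell, where 19.8% of all genes were called, with a median difference of 0.32. Dsc1, the desmocollin of the upper squamous layers, read 6.85, 7.71 and 7.23 under duodenal reflux in Nrf2-null mice, against 6.10, 6.05 and 6.20 in Nrf2-null mice without reflux. It rose by 1.15 ± 0.21 (adjusted p = 0.00201) with no overlap, and by 0.93 without the low arrays (adjusted p = 0.00171). Dsg1c fell by 1.08 ± 0.21 (adjusted p = 0.0022), and by 1.01 without the low arrays (adjusted p = 0.00362), but mouse Dsg1 has near-identical paralogs, so its probe may read more than 1 of them. No other comparison called a gene of this list with all arrays. With the pair left out, Dsg1a under duodenal reflux in Nrf2-null mice (-0.60, adjusted p = 0.0301) and Dsc1 under mixed reflux in Nrf2-null mice (0.80, adjusted p = 0.0254) were among the further calls.

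A list of 13 other adherens junction genes was tested whole. Duodenal reflux against no reflux called 1 higher and 2 lower in Nrf2-null mice (Cdh3; Arvcf and Vcl), and 1 higher and 2 lower in wild-type mice (Cdh3; Arvcf and Nectin3), where 19.8% and 10.3% of all genes were called, with median differences of -0.04 and 0.01. Nectin1 was also called in Nrf2-null mice without the low arrays (0.69, adjusted p = 0.0206). Cdh3, which encodes P-cadherin, the classical cadherin of basal layers, read 4.75, 4.80 and 4.70 under duodenal reflux in Nrf2-null mice, against 2.79, 2.81 and 3.15 in Nrf2-null mice without reflux. Under duodenal reflux in wild-type mice it read 4.52, 4.12 and 4.24, against 2.14, 2.42 and 3.39 without reflux. The groups did not overlap in either genotype, and the low array lay within its group.

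Cdh3 rose by 1.83 ± 0.26 in Nrf2-null mice (adjusted p = 0.000208) and by 1.64 ± 0.26 in wild-type mice (adjusted p = 0.000891). Over the mean of the 4 conditions it was 0.51 ± 0.15 higher in Nrf2-null than in wild-type mice (adjusted p = 0.0397). These values were 1.81, 1.64 and 0.48 without the low arrays, all called. For Cdh1 the same 2 responses were 1.03 and -0.10.

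Arvcf, a catenin of the p120 family that binds the cadherin tail, read -0.87, -0.95 and -0.99 under mixed reflux in Nrf2-null mice, against 0.86, 0.61 and 0.84 in wild-type mice. It was lower by 1.71 in Nrf2-null mice (difference -1.71 ± 0.31, adjusted p = 0.00507), with the Nrf2-null arrays counted as 1 sample, which is assumed to vary like the other groups. That group is the one labelled epithelium, so tissue label and genotype cannot be told apart there. Under gastric reflux the difference was -1.09 ± 0.22 (adjusted p = 0.00557), and over the mean of the 4 conditions -0.86 ± 0.12 (adjusted p = 0.000531). Under duodenal reflux Arvcf fell in both genotypes, with differences from no reflux of -0.74 in Nrf2-null mice (adjusted p = 0.0257) and -1.15 in wild-type mice (adjusted p = 0.00347). With the pair left out, the gastric and mean differences between genotypes were -1.38 and -0.99, and the duodenal responses -0.97 in Nrf2-null and -1.15 in wild-type mice, all called.

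Under gastric reflux, where 17.7% of all genes were called, 1 of the 13 was higher in Nrf2-null than in wild-type mice, Ctnnbip1 (0.82, adjusted p = 0.029), which encodes an inhibitor of beta-catenin. There 4 were lower, Arvcf, Nectin3 (-1.63, adjusted p = 0.00522), Vcl (-0.77, adjusted p = 0.033) and Jcad (-0.81, adjusted p = 0.0385). Vinculin, the product of Vcl, links catenins to actin, and nectins are immunoglobulin-like adhesion molecules of adherens junctions. Vcl also fell by 1.12 under duodenal reflux in Nrf2-null mice (adjusted p = 0.00327), and Nectin3 by 1.07 under duodenal reflux in wild-type mice (adjusted p = 0.0433). Without the low arrays 2 were higher in Nrf2-null mice under gastric reflux, Nectin2 and Nectin4, and 2 lower, Arvcf and Nectin3. In that fit 32.2% of all genes were called. Jcad, a cadherin-associated junction gene, also rose by 1.12 under gastric reflux in wild-type mice (adjusted p = 0.0275). There 2 of 6 endothelial markers were higher, with a median difference of 1.53, where 4.12% of all genes were called. The part of endothelial cells in the Jcad differences was not tested. Arvcf fell by 1.33 under mixed reflux in Nrf2-null mice, the group labelled epithelium and counted as 1 sample.

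Of 15 regulators of junction genes 14 were tested. Under duodenal reflux in Nrf2-null mice, where 19.8% of all genes were called, 2 rose, Snai1 (0.79, adjusted p = 0.0185) and Ovol1 (1.20, adjusted p = 0.0172), and Snai2 fell by 1.47 (adjusted p = 0.00351). In the same order the differences were 0.70, 0.85 and -1.44 without the low arrays, all called. Snai1 and Snai2 encode repressors of E-cadherin transcription, and Ovol1 encodes an epithelial zinc finger repressor. Snai2 read -0.06, -0.12 and -0.03 under duodenal reflux in Nrf2-null mice, against 1.34, 1.51 and 1.33 in Nrf2-null mice without reflux, with no overlap.

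Under gastric reflux Grhl2 (1.02, adjusted p = 0.0462), which encodes an epithelial differentiation factor, was higher in Nrf2-null mice than in wild-type mice, and Zeb2 (-1.36, adjusted p = 0.0321), another repressor of E-cadherin, was lower. Without the low arrays Ovol1 and Zeb2 were called there, and Grhl2 was not (adjusted p = 0.0647). Of all genes 17.7% were called in this comparison, and 32.2% without the low arrays. In the other 9 comparisons none of the regulators was called with all arrays. Without the low arrays Snai2 (-1.05, adjusted p = 0.0362) and Zeb1 (1.19, adjusted p = 0.0288) were among the calls for gastric reflux in wild-type mice. There 16.4% of all genes were called. Snai2 differed by -1.29 for mixed reflux in Nrf2-null mice, the group counted as 1 sample.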

How the data were processed

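Oesophageal RNA was measured against a common reference RNA on 24 two-colour Agilent arrays, 3 in each of 8 groups, and groups follow the sample titles. The members and gene lists were chosen with earlier results of these data known. The genes named were the 10 members, and of each list those called in a comparison, except for a regulator that is not reported here.

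The deposited scanner files hold the mean and local background intensity of both dyes for 45018 spots, per the file headers. They also hold a log10 ratio made by the scanner software, per the file headers. The deposited table of the authors holds log2 ratios; how it was normalised no source used here says. Column medians were 0 to 0.069, and regression on the scanner log10 ratio gave slopes of 2.58 to 3.14. Agilent Feature Extraction 9.1 stands in the submitters' processing notes, and later versions in the file headers. Probe names, coordinates and the 60-base sequences are columns of the deposited files.

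Ratios were computed from the intensities with limma 3.58.1 in R 4.3.3, by normexp with an offset of 50 and loess with control spots at weight 0. Where the software flagged a local background as an outlier, the array median stood in for it (a choice made after the data were seen), and outlier spots were left out. Each group had one mean in a linear model over 22 samples, with 14 residual degrees of freedom. Benjamini-Hochberg adjustment ran over all genes, at a threshold of 0.05. The number of arrays limits the precision. The fit was tested on simulated data.

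Alternatives covered background, normalization, filters, probe summary, scan day, slide, replicate block, muscle markers and each array left out. Those without the 2 arrays of low Cy5 signal or of slide 1, with array weights, with slide as a random block and within slide 2 were added after the data were seen. Samples with the same replicate number did not deviate together, with correlations of -0.65 to 0.57 and 16 of 63 pairs over 0.1, so numbers were not used as pairs.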

Additional observations from a re-analysis of the deposited data

How the results depend on the processing

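Apart from single arrays left out, and from settings added after the data were seen, 15 other settings kept the call under duodenal reflux in Nrf2-null mice in 12 for Dsc2, 11 for Dsc3, 7 for Dsp and 6 for Cdh1, and 6 of 13 kept that of Dsc2 between the genotypes under gastric reflux. The direction of these calls held in every alternative run. With the replicate block the median member difference for duodenal reflux in Nrf2-null mice was 0.48 and Dsp (adjusted p = 0.0639) and Cdh1 (adjusted p = 0.0571) lost their calls; the numbers do not pair the samples. The few arrays and the dim Dsc3 spot limit the precision. The cause of the changes that follow was not tested.

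Values are medians of the 10 member differences, Nrf2-null minus wild type or reflux minus no reflux, with counts of members called by the F tests. With local backgrounds as read the genotypes differed by 0.44 without reflux, wild type by 0.12, 0.85 and 0.85 under gastric, duodenal and mixed reflux, and the interaction and any-group F tests called 1 and 3. With median centring the genotypes differed by 0.29 without reflux and 0.43 under mixed reflux, wild type by -0.062 under gastric reflux, Nrf2-null by 0.16 and 0.40 under duodenal and mixed reflux, and the any-group test called 4. Centring moved the median of all genes between the genotypes without reflux to 0.32 from 0.03.

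With scan day as a block the genotypes differed by -0.26 without reflux, as within scan day 2, and by 0.25 under gastric reflux. Wild type then differed by -0.0094 and -0.12 under duodenal and mixed reflux, Nrf2-null by -0.035 and 0.36 under gastric and duodenal reflux, as within scan day 3, and the any-group test called 0. With slide as a block the genotypes differed by -0.045 and -0.10 under duodenal and mixed reflux, and Nrf2-null by -0.25, 0.14 and -0.014 under gastric, duodenal and mixed reflux. There Dsg3 was reversed between the genotypes under duodenal reflux (-1.45) and in Nrf2-null mice under duodenal reflux (-1.24), as was Jup in Nrf2-null mice (-1.27). Slide as a random block gave 0.22 for mixed reflux in Nrf2-null mice.

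Scanner log ratios gave 0.72, 0.33 and -0.0031 between the genotypes under gastric, duodenal and mixed reflux, and 0.51 and 0.67 for gastric and duodenal reflux in Nrf2-null mice. The authors' deposited values gave 0.63, 0.50 and -0.047, and 0.43 and 0.70. The mean of probes gave 0.14 between the genotypes under mixed reflux, -0.31 for gastric reflux in Nrf2-null mice and 3 any-group calls. Array weights gave 0.24 and 0.22 for gastric and mixed reflux in Nrf2-null mice, 4 and 6 calls of the F tests, and 0.72 for Dsg2 between the genotypes under gastric reflux, which reversed. Without the 2 low arrays duodenal reflux in Nrf2-null mice gave 0.36 and the F tests called 2 and 8, with Nrf2-null mixed reflux as 3 samples 2 and 4, and with muscle markers as a covariate 1 and 4.

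Leaving out single arrays gave, between the genotypes, -0.087 to 0.51 without reflux, 0.32 to 0.50 under gastric, 0.06 to 0.12 under duodenal and 0.03 to 0.07 under mixed reflux, and 0.09 to 0.21 over the conditions. Against no reflux it gave 0.05 to 0.18, 0.36 to 0.54 and 0.10 to 0.23 for gastric, duodenal and mixed reflux in Nrf2-null mice, and -0.45 to -0.021, 0.14 to 0.60 and 0.026 to 0.45 in wild type. The F tests called 0 to 2 for the interaction and 1 to 6 for any group.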
